A study of Mus musculus with 65 samples.

Results

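Myb encodes c-MYB, the founding member of the MYB family of sequence-specific transcription factors, and was 1 of 15020 gene symbols measured by PRO-seq, a run-on assay that counts RNA polymerases engaged in transcription, in MEL cells. MEL is an established mouse erythroleukemia line, here carrying Mtg16 (gene Cbfa2t3), a corepressor, fused to an FKBP tag and 2XHA, so that the small molecule dTAGV1 degrades the protein. Myb was selected on its measured changes in these tables, which were large and of opposite sign under different agents, so its own changes are described here without a test. The row named Myb was taken from the gene table of the A485 experiment and matched by transcript in the other tables. Both transcripts listed under the symbol held identical values in all 64 library columns with values, of which 62 could be tied to a group.

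The libraries came from 4 experiments whose tables were normalised separately, so levels are set against each other only within an experiment, and all cells carried the tagged Mtg16 allele. In the time course, cells received 250 nM dTAGV1 (called degrader below) for 15 min, 30 min, 1 h or 2 h, or were treated for 2 h and then washed into complete medium for 30 min, 1 h or 2 h, with DMSO as baseline. In the A485 series, cells received the degrader, 10 µM A485, which blocks the catalytic site of the acetyltransferases p300 and CBP, or both for 15 min, 30 min or 1 h, or DMSO. The LBH589 series set 30 min and 1 h of 5 nM LBH589, the histone deacetylase inhibitor panobinostat, against DMSO, and the LBH589 washout experiment held washouts of 1 h and 30 min without a DMSO group. By the series' definition of a washout, its cells had the 250 nM degrader for 2 h beforehand, and they also received 5 nM LBH589; no label states when it was added or removed. A485 30 min, both agents 30 min, degrader 2 h and degrader washout 1 h had 2 libraries each by their labels, and every other group had 3. In the A485 series, libraries of A485 and of both agents at 30 min and 1 h are numbered from 1 to 3, and the others from 4 to 6. In the LBH589 series, LBH589 libraries are numbered 1 to 3 and DMSO libraries 7 to 9. These inhibitor groups therefore have no DMSO library of the same number, and the labels do not say what the numbers stand for. No label says that libraries of a group came from separate cultures, so p-values measure the spread between these libraries.

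In the time course, 5 libraries, those here labelled degrader 1 h and 2 h, carry A485 in both title and treatment label. Their library names carry dTAGV1, and they were grouped by library name. Every time-course comparison with 1 h or 2 h of degrader rests on that grouping. The time-course gene table names 22 libraries over 21 columns with values. Of these, 2 washout columns could not be tied to a library and were left out, and the remaining washout columns of 1 h and 2 h carry no replicate number. The libraries labelled degrader 15 min replicate 2 and degrader 30 min replicate 3 stood apart, with mean correlations of -0.36 and -0.22 to the other libraries of their groups over the 2000 most variable genes. In the tables of transcribed sites described last, the libraries labelled degrader 30 min replicate 3 and washout 30 min replicate 3 went against their labels, each correlating with the other's group. Genes held about 7450000 to 62400000 reads per library over the 4 gene tables, and Myb itself was covered by 420 to 44734 reads. Of the 6 erythroid markers listed, 5 were measured, and their summed level was 427 to 651 CPM (reads scaled to a common library total) in the 9 DMSO libraries. The 4 measured granulocyte and macrophage markers (of 6 listed) summed to 23.5 to 45.9 CPM there, 3 megakaryocyte markers to 182 to 249, 4 lymphoid markers to 94.2 to 179 and 2 fibroblast markers to 0.262 to 2.76, and no measured marker was at 0 in every DMSO library. Cbfa2t3 nascent RNA does not check the degradation of its protein; it averaged 50986 ± 1651 normalised reads after 1 h of degrader and 11270 ± 957 in DMSO (SD, n = 3 each, A485 series).

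c-MYB keeps blood progenitors dividing and undifferentiated, is abundant in immature erythroid cells and declines as they mature, and forced MYB expression holds MEL cells back from maturation. It recruits the coactivators CBP and p300 through its transactivation domain. Transcription of the gene is controlled by distant enhancers, among them the stretch between Myb and Hbs1l bound by GATA1, TAL1, LDB1 and KLF1, and by regulated elongation through the first intron. MTG16 is a partner of the GATA1, TAL1 and LDB1 complex and recruits histone deacetylases.

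The Myb promoter is shown because it surrounds the annotated start of the gene. Where the measured transcription of Myb begins was not determined here. In RefSeq on the build GRCm38.p6, Myb (gene ID 17863) occupies chromosome 10 from 21124930 to 21160984 on the minus strand, and the window from 250 bases before to 50 after its start is chr10:21160935-21161234, printed 5′ to 3′ on the minus strand with the 1 match to a searched motif in capitals.
Myb promoter: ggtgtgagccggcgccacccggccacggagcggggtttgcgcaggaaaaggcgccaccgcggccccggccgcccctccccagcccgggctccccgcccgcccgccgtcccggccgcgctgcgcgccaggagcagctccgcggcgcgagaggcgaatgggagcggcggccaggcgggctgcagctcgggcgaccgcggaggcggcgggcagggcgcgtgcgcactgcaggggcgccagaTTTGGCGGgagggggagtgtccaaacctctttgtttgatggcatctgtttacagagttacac
The window is 75.0% G and C, against a median of 52.7% over 27025 gene promoters. It holds the E2F letters TTTGGCGG once, 12 bases before the start, on the printed strand. Searched on both strands, that motif is in 0.551% of the promoters. A GATA motif was searched as AGATAA, as well as with the letters TGATAA, besides the letters AGATAG, and also as TGATAG; it is in 30.2% of promoters. A MYB motif, searched as TAACNG and, in addition, with the letters CAACNG, is in 49.7% of them. Neither has a match in this window. These matches are letters in a window and were not tested as binding sites.

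Myb nascent transcription was higher with the degrader than in DMSO in the time course, and highest at 1 h and 2 h. It had 9674, 8414 and 8180 normalised reads in DMSO, 15881, 25011 and 14117 after 15 min, 25520, 24443 and 7418 after 30 min, 32591, 31843 and 30612 after 1 h, and 31094 and 30972 after 2 h. Every library of 15 min, 1 h and 2 h lay above every DMSO library, whereas the 30 min group overlapped DMSO through the library that stood apart. Relative to DMSO, the log2 difference was 1.02 ± 0.34 at 15 min, 0.93 ± 0.34 at 30 min, 1.86 ± 0.34 at 1 h and 1.83 ± 0.38 at 2 h (SE of the limma model). The 25011 reads of the library that stood apart at 15 min lay within the 24443 to 25520 of the other 30 min libraries, and the 7418 reads of the one at 30 min lay within the 6898 to 10856 of the 30 min washout. At the transcribed sites, the one at 15 min had mean correlations of -0.21 to its own group and -0.04 to the 30 min degrader group. Whether these 2 libraries belong to other groups was not tested. Without these 2 libraries the differences were 0.78 ± 0.11 at 15 min and 1.52 ± 0.11 at 30 min, and the levels stood in the order of time up to 1 h: 171% of DMSO at 15 min, 285% at 30 min and 362% at 1 h, with 354% at 2 h. The 1 h and 2 h levels overlapped.

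After the degrader was washed out, Myb was at the level of DMSO at 30 min and above it at 2 h, with 1 settled library at 1 h. The washout libraries had 6898 and 10856 normalised reads at 30 min, 12482 in the one settled column at 1 h, and 17590 and 18485 at 2 h. Against the 31094 and 30972 reads of degrader 2 h, all of them were lower. The log2 difference from degrader 2 h was -1.84 ± 0.41 at 30 min, -1.31 ± 0.51 at 1 h, with 1 library, and -0.78 ± 0.41 at 2 h. Set against DMSO it was -0.01 ± 0.38 at 30 min, where the libraries overlapped, and 1.05 ± 0.38 at 2 h, where both washout libraries lay above all DMSO libraries. The ± 0.41 of these differences came down to ± 0.12 without the libraries that stood apart, at the same differences. Over the experiment the lowest levels were DMSO and 30 min washout, which overlapped, followed by 1 h washout, 2 h washout, 15 min and 30 min of degrader, the last 3 overlapping one another, and then 2 h and 1 h of degrader.

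**Figure D1:**
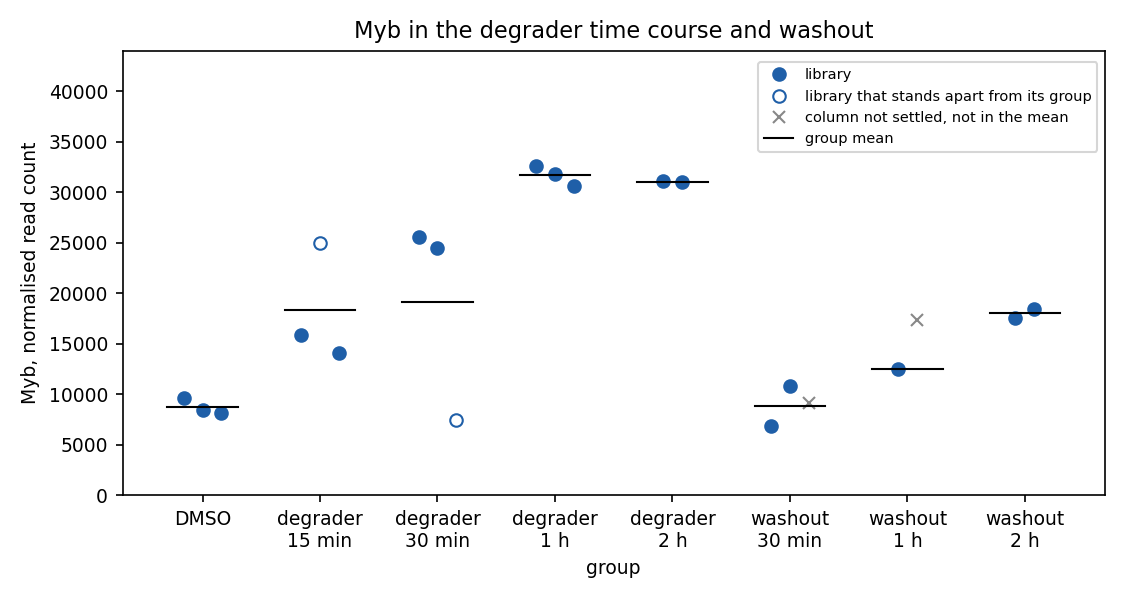
Normalised read counts of Myb in each library of the time course, by group, with the group mean as a bar. Open circles are the 2 libraries that stood apart, and crosses are the 2 unsettled columns, which are not in the means. The 1 h and 2 h degrader libraries sit between 30612 and 32591, and the 30 min washout libraries at 6898 and 10856.

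In the A485 series Myb was above DMSO with the degrader and below it with A485 from the first time point. DMSO libraries had 6432, 6204 and 6990 normalised reads; degrader libraries had 9005, 9351 and 8929 at 15 min, 13146, 13644 and 13025 at 30 min, and 16187, 14670 and 14101 at 1 h. None of the degrader groups overlapped DMSO or one another. A485 libraries had 3563, 3389 and 3831 at 15 min, 2139 and 2146 at 30 min, and 1206, 1280 and 1294 at 1 h, each group below DMSO and below the group before it. The log2 difference from DMSO was 0.48, 1.02 and 1.20 (± 0.05 each) at 15 min, 30 min and 1 h of degrader, and -0.86, -1.61 and -2.37 (± 0.05 each) at those times of A485. At 1 h, Myb stood at 229% of DMSO with the degrader and at 19.3% with A485.

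Given together, the agents left Myb below DMSO but above A485 alone at each time. Libraries with both agents had 4301, 4827 and 4697 normalised reads at 15 min, 3046 and 3317 at 30 min, and 2261, 2315 and 2313 at 1 h. At every time all of them lay above the A485 libraries of that time and under all DMSO libraries. The log2 difference from A485 alone was 0.36 ± 0.05 at 15 min, 0.57 ± 0.06 at 30 min and 0.87 ± 0.05 at 1 h. From degrader alone it was -2.70 ± 0.05 at 1 h. The change with the degrader in the presence of A485 minus that in its absence was -0.12 ± 0.07 at 15 min, -0.45 ± 0.08 at 30 min and -0.33 ± 0.07 at 1 h. The 10 groups fell into one order without overlap between any neighbours: A485 1 h, A485 30 min, both 1 h, both 30 min, A485 15 min, both 15 min, DMSO, and degrader 15 min, 30 min and 1 h.

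With LBH589, Myb was lower than in DMSO at 30 min. The DMSO libraries had 9587, 9354 and 9762 normalised reads, those at 30 min 3471, 3962 and 3486, and those at 1 h 2986, 3234 and 3198. The 3 groups did not overlap. The log2 difference from DMSO was -1.40 ± 0.04 at 30 min and -1.61 ± 0.04 at 1 h, and 1 h differed from 30 min by -0.21 ± 0.04. Myb stood at 38.0% of DMSO at 30 min and at 32.8% at 1 h, so most of the difference was present at the first time point.

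In the LBH589 washout experiment Myb was lower at the later time. The 1 h washout libraries had 1049, 887.1 and 1605 normalised reads, against 3454, 5079 and 5226 in the 30 min washout libraries. The groups did not overlap, and the log2 difference was -1.98 ± 0.21 (SE, n = 3 each). The 1 h library with 1605 reads had a mean correlation of 0.043 to its group over the 2000 most variable genes. The other 1 h libraries had 0.24 and 0.21. With no DMSO group in the experiment, neither time can be placed against untreated cells.

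**Figure D2:**
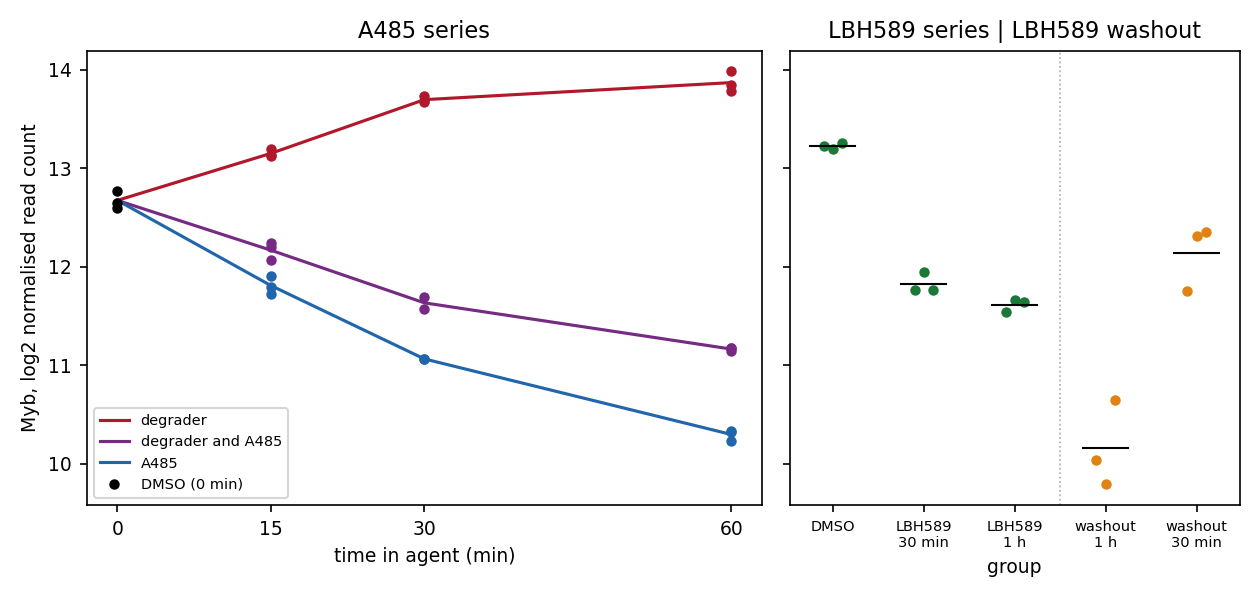
Log2 normalised read counts of Myb, with a point for each library. On the left, lines join group means of the A485 series from DMSO at 0 min through 15, 30 and 60 min of degrader (red), both agents (purple) and A485 (blue). On the right are the LBH589 series (green) and the LBH589 washout experiment (orange) with group means as bars, which is normalised apart from it. Degrader alone lies above DMSO and the other arms below it at every time.

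The other MYB family genes had other patterns than Myb. Mybl2, which encodes the cell-cycle regulator B-MYB, averaged 1663 ± 62.9 normalised reads in A485 1 h and 1606 ± 71.1 in DMSO (SD, n = 3 each), a log2 difference of 0.05 ± 0.06 (adjusted p = 0.469 in limma). Mybl1, which encodes A-MYB, a regulator of male germ cells, rose with A485 to 522 ± 40.2 reads, against 336 ± 12.3 in DMSO (log2 difference 0.63 ± 0.08, adjusted p = 6.31e-08). It also rose with LBH589, with a log2 difference of 0.80 ± 0.07 (adjusted p = 1.2e-10), where Mybl2 fell by 0.18 ± 0.04 on the log2 scale (adjusted p = 0.000133). Neither passed the threshold of adjusted p under 0.05 with 1 h of degrader, with log2 differences of -0.08 ± 0.08 for Mybl1 and -0.01 ± 0.06 for Mybl2. With libraries scaled to the same total, Mybl2 was higher with A485, and its difference with LBH589 did not pass the threshold. Of 12597 genes tested, 29.4% were higher and 33.2% lower in A485 1 h than in DMSO, and of 12553 genes, 32.4% were higher and 34.6% lower in LBH589 1 h. Scaling to the same total moved the median of all genes by 0.22 with A485 and by 0.12 with LBH589, and the shares to 51.1% higher and 21.8% lower, and to 44.2% higher and 24.1% lower.

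Genes beside Myb on the chromosome had smaller log2 differences than Myb with A485 and with LBH589, and with the degrader for all but Gm33619. They are Hbs1l, a ribosome rescue factor, Ahi1, a ciliary protein, Aldh8a1, Sgk1, Map3k5, Map7, Bclaf1, Mtfr2 and the noncoding Gm33619, that is 9 measured of 11 listed. With 1 h of degrader 4 of the 9 rose and 1 fell, where 14.7% of all genes were higher and 10.9% lower (12.3% and 17.4% when scaled to the same total). Ahi1 averaged 1044 ± 44.6 normalised reads with the degrader and 864 ± 18.6 in DMSO (log2 difference 0.27 ± 0.05, adjusted p = 0.000267). Hbs1l averaged 4017 ± 84.3 and 3617 ± 39.6 in these groups (0.15 ± 0.03, adjusted p = 0.00104), and Map7 differed by 0.14 ± 0.04 (adjusted p = 0.00765). Gm33619, a long noncoding RNA gene annotated between Myb and Hbs1l, had 30.3 ± 8.496 reads with the degrader and 11.1 ± 2.91 in DMSO (1.36 ± 0.51, adjusted p = 0.0489). Mtfr2, a mitochondrial protein, was the one that fell, by 0.27 ± 0.07 (adjusted p = 0.00538).

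With A485 for 1 h, 5 of these 9 neighbours fell and 1 rose, where 33.2% of all genes were lower and 29.4% higher. Sgk1, a serum-induced kinase, averaged 102 ± 6.72 normalised reads with A485 and 233 ± 3.28 in DMSO (log2 difference -1.19 ± 0.12, adjusted p = 4.15e-10). Hbs1l averaged 3185 ± 66.1 and 3617 ± 39.6 (-0.18 ± 0.03, adjusted p = 2.33e-05), a difference whose sign turned when libraries were scaled to the same total (0.03). Ahi1 was the gene that rose, by 0.23 ± 0.05 (adjusted p = 0.000509). Adding the degrader to A485 raised Hbs1l (0.14 ± 0.03, adjusted p = 0.00765) and Map7 (0.14 ± 0.04, adjusted p = 0.0178), 2 of the 9, where 4.56% of all genes were higher and 2.34% lower. With LBH589 for 1 h, 4 of the 9 were lower and 1 higher, where 34.6% of all genes were lower and 32.4% higher. Bclaf1, an apoptosis-associated RNA-binding factor, had the largest of these log2 differences, -0.60 ± 0.04 (adjusted p = 2.42e-14), and Hbs1l differed by -0.11 ± 0.03 (adjusted p = 0.00271; 0.00 when scaled to the same total). At 2 h of washout Hbs1l and Map7 were lower than at 2 h of degrader, by 0.26 ± 0.06 (adjusted p = 0.0111) and 0.36 ± 0.11 (adjusted p = 0.0342) on the log2 scale, and the other 7 did not pass, where 8.98% of all 12720 genes were higher and 8.3% lower.

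Genes reported as MYB targets did not all move with Myb. Nascent RNA was measured here and not c-MYB protein, so the level of Myb does not give the activity of c-MYB at these genes. Of 30 listed, 24 were measured and 22 had a mean of at least 10 reads, the filter for testing. With 1 h of degrader, when Myb was higher, 1 of the 22 rose and 5 fell, where 14.7% of all genes were higher and 10.9% lower. The gene that rose was Lmo2, a bridging partner of TAL1 and LDB1, with 1559 ± 58.8 normalised reads in degrader libraries and 1157 ± 63.3 in DMSO libraries (log2 difference 0.43 ± 0.08, adjusted p = 6.76e-05). Hspa8, a chaperone (-0.63 ± 0.14, adjusted p = 0.000581), Mat2a, which makes S-adenosylmethionine (-0.54 ± 0.06, adjusted p = 2.83e-09), and Mcl1, a survival factor (-0.41 ± 0.05, adjusted p = 2.31e-08), led those that fell, followed by Cdk1 and Slc1a5 at -0.17 each. Myc averaged 3042 ± 219 reads with the degrader and 2927 ± 173 in DMSO (0.05 ± 0.10, adjusted p = 0.753), and Bcl2, an inhibitor of apoptosis, 14924 ± 146 and 14861 ± 235 (0.01 ± 0.03, adjusted p = 0.914). Cdk6, which drives entry into S phase, differed by -0.06 ± 0.03 (adjusted p = 0.144), and Kit, a receptor of progenitors, by 0.49 ± 0.20 (adjusted p = 0.073) at 79.5 ± 4.14 and 56.5 ± 8.83 reads. The median log2 difference over the 22 was 0.04, against 0.00 over all genes (-0.04 over all genes when scaled to the same total).

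With A485 for 1 h, when Myb stood at 19.3% of DMSO, 14 of the 22 listed targets fell and 3 rose, with a median log2 difference of -0.48 against 0.00 over all genes. Of all genes, 33.2% were lower and 29.4% higher. Scaled to the same total, 12 of the 22 fell and 4 rose, where 21.8% of all genes were lower and 51.1% higher. The median over all genes was then 0.22, so the 0.00 depends on the normalisation. Myc averaged 261 ± 63.6 normalised reads with A485 and 2927 ± 173 in DMSO (log2 difference -3.50 ± 0.10, adjusted p = 5.09e-25). Adora2b, an adenosine receptor, had 129 ± 5.21 and 1147 ± 59.9 (-3.14 ± 0.09, adjusted p = 3.4e-25), and Ikzf1, a lymphoid and erythroid zinc finger factor, 2092 ± 152 and 11093 ± 289 (-2.41 ± 0.04, adjusted p = 2.1e-32). Lmo2 averaged 288 ± 30.8 and 1157 ± 63.3, Bcl2 differed by -1.15 ± 0.03 and Cdk6 by -0.92 ± 0.03, each with an adjusted p of 1.18e-21 or smaller. Ets1, an ETS factor at low level here, rose to 93.1 ± 4.28 reads, against 45.5 ± 11.8 in DMSO (1.05 ± 0.20, adjusted p = 3.65e-05). Kit did not pass the threshold, with 54.4 ± 23.2 and 56.5 ± 8.83 reads (adjusted p = 0.604).

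With the degrader on top of A485, 3 of the 22 were higher and 2 lower than with A485 alone, where 4.56% of all genes were higher and 2.34% lower. Myc averaged 359 ± 29.0 normalised reads with both agents and 261 ± 63.6 with A485 (log2 difference 0.48 ± 0.10, adjusted p = 0.00276). Cxcr4, a chemokine receptor, and Ccnb1, a mitotic cyclin, were the others that were higher, at 0.62 ± 0.19 (adjusted p = 0.0443) and 0.20 ± 0.06 (adjusted p = 0.028), and Mat2a and Ikzf1 were lower, at -0.24 ± 0.06 (adjusted p = 0.00481) and -0.13 ± 0.04 (adjusted p = 0.0276). With edgeR on the recovered reads 0 of the 22 were higher and 2 lower, where 2.65% of all genes were higher and 1.75% lower. A test of the difference itself, the change with the degrader with A485 minus that without at 1 h, passed for 5 of the 22, 4 positive and 1 negative, where 4.99% of all genes were positive and 6.54% negative.

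LBH589 for 1 h lowered 11 of the 22 and raised 6, with a median of -0.19 against 0.00 over all genes, of which 34.6% were lower and 32.4% higher. Scaled to the same total, 10 of the 22 fell and 7 rose. Of all genes, 24.1% were then lower and 44.2% higher, with a median of 0.12. Myc averaged 1524 ± 90.6 normalised reads with LBH589 and 3923 ± 154 in DMSO (log2 difference -1.36 ± 0.05, adjusted p = 6.37e-20). Lmo2 (-1.09 ± 0.04), Hspa8 (-0.90 ± 0.05), Mat2a (-0.69 ± 0.04), Cdk6 (-0.67 ± 0.03) and Bcl2 (-0.56 ± 0.03) fell as well, each with an adjusted p of 5.11e-15 or smaller except Mat2a at 2.85e-14. Prtn3, a granule protease of neutrophils, rose to 66.4 ± 17.0 reads, against 27.9 ± 2.69 in DMSO (1.19 ± 0.20, adjusted p = 5.58e-06). Ets1, which rose with A485, fell with LBH589 to 47.3 ± 6.87 reads, against 69.2 ± 2.61 in DMSO (-0.55 ± 0.17, adjusted p = 0.00589).

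**Figure D3:**
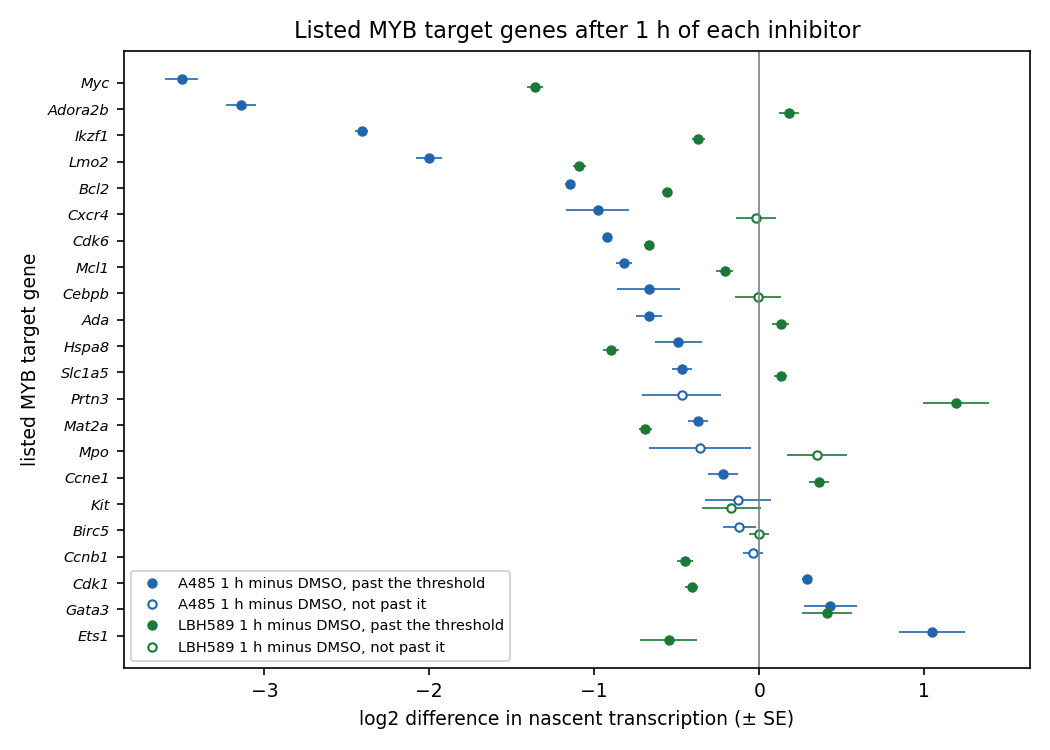
Log2 differences (± SE of the limma model) of the 22 tested genes listed as MYB targets, in A485 1 h minus DMSO (blue) and LBH589 1 h minus DMSO (green); filled points pass an adjusted p of 0.05 over all genes. Myc lies lowest under both inhibitors, at -3.50 and -1.36, and most points lie left of 0.

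After 2 h of washout, against 2 h of degrader, 4 of the 22 targets were higher and 4 lower, where 8.98% of all genes were higher and 8.3% lower. Without the libraries that stood apart 9 were higher and 5 lower, where 22.2% of all genes were higher and 20.8% lower. Myc averaged 8781 ± 249 normalised reads in washout libraries and 3724 ± 9.61 in degrader libraries (log2 difference 1.24 ± 0.26, adjusted p = 0.00531, n = 2 each in the limma fit). Cxcr4, Birc5 and Cdk6 were higher too, at 0.93 ± 0.25, 0.70 ± 0.12 and 0.34 ± 0.06. Bcl2 was lower, with 14431 ± 265 and 19632 ± 77.0 (-0.44 ± 0.06, adjusted p = 0.000189), as was Cebpb, a myeloid factor, at -1.49 ± 0.24 (adjusted p = 0.000954). Slc1a5 and Gata3 were the other genes that were lower. Myb was below its 2 h degrader level, and Myc above its own.

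Of 12 listed cofactors of MYB, 1 rose and 3 fell with 1 h of degrader, where 14.7% of all genes were higher and 10.9% lower. With A485 3 rose and 5 fell (29.4% and 33.2% of all genes), and with LBH589 6 rose and 4 fell (32.4% and 34.6%). For both agents against A485, 0 of 12 passed in either direction in limma and in edgeR (1 at an unadjusted p under 0.05 in limma). Of all genes, 4.56% were higher and 2.34% lower in limma, and 2.65% and 1.75% in edgeR. Crebbp, which encodes CBP, averaged 2704 ± 127 normalised reads with the degrader and 2934 ± 45.7 in DMSO (log2 difference -0.12 ± 0.04, adjusted p = 0.0153), and 3347 ± 93.6 with A485 (0.19 ± 0.04, adjusted p = 3.67e-05). Ep300, which encodes p300, had 3175 ± 77.1 with A485 and 3374 ± 57.6 in DMSO (-0.09 ± 0.04, adjusted p = 0.0633); scaled to the same total, its difference was 0.13. Kmt2a, a histone methyltransferase that binds MYB with menin, fell with A485 (-0.82 ± 0.03, adjusted p = 1.07e-21), as did the kinase gene Hipk1 (-0.78 ± 0.04, adjusted p = 1.39e-17) and Cited2, a CBP-binding factor, at 31.8 ± 13.4 and 91.8 ± 7.39 reads (-1.59 ± 0.28, adjusted p = 1.06e-05). Mybbp1a, which encodes a MYB-binding nucleolar protein, had the largest log2 difference of the list with LBH589, -0.72 ± 0.04 (adjusted p = 8.33e-15).

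Of 23 listed and tested genes of factors reported to bind the Myb locus, 10 rose and 1 fell with 1 h of degrader (median log2 difference 0.15), where 14.7% of all genes were higher and 10.9% lower. With A485 15 fell and 2 rose (median -1.40), where 33.2% of all genes were lower and 29.4% higher, and when libraries were scaled to the same total 15 fell and 8 rose (21.8% and 51.1% of all genes). With both agents 9 were higher and 1 lower than with A485 (4.56% and 2.34% of all genes). With LBH589 17 fell and 2 rose (median -0.45), where 34.6% of all genes were lower and 32.4% higher. Gata1 averaged 3358 ± 74.0 normalised reads with the degrader and 2104 ± 68.3 in DMSO (log2 difference 0.67 ± 0.09, adjusted p = 2.37e-07), and 214 ± 20.2 with A485 (-3.30 ± 0.09, adjusted p = 1.39e-26). Gfi1b, a repressor required in erythroid cells, had 10262 ± 216 with the degrader and 4516 ± 363 in DMSO (1.19 ± 0.08, adjusted p = 3.09e-13). Runx1, at 37915 ± 319 and 26955 ± 367 reads, differed by 0.49 ± 0.03 (adjusted p = 8.93e-14), and Gata2, at 135 ± 9.68 and 98.6 ± 10.5, by 0.46 ± 0.14 (adjusted p = 0.016). Zfpm1 (-3.77 ± 0.06), Lyl1 (-3.49 ± 0.10) and Spi1 (-2.42 ± 0.06) were among those that fell with A485, each with an adjusted p of 4.79e-26 or smaller, while Gata2 did not pass (0.15 ± 0.14, adjusted p = 0.36).

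At 2 h of washout 3 of these 23 were higher and 3 lower than at 2 h of degrader (8.98% and 8.3% of all genes), and 8 and 7 without the libraries that stood apart (22.2% and 20.8%). Ldb1 averaged 4559 ± 152 normalised reads in washout libraries and 1948 ± 73.8 in degrader libraries (log2 difference 1.23 ± 0.15, adjusted p = 0.000139), and Klf1, an erythroid activator, was higher by 0.79 ± 0.19 (adjusted p = 0.0122). Runx1 (-0.63 ± 0.08, adjusted p = 0.000236) and Gfi1b (-0.59 ± 0.17, adjusted p = 0.0248) were lower. Gata1 had 4563 ± 200 and 4984 ± 142 reads, which did not pass the threshold (-0.13 ± 0.17, adjusted p = 0.653).

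Of 14 tested genes of red cell maturation, a programme that in textbook accounts follows the decline of MYB, 10 rose and 0 fell with 1 h of degrader in limma and in edgeR, where 14.7% of all genes were higher and 10.9% lower in limma. The 4 that did not pass in limma were Ank1 (0.08, adjusted p = 0.309), Trim58 (0.13, 0.558), Xpo7 (-0.02, 0.795) and Hbb-bt (0.15, 0.835). The list held 18 genes, of which 15 were measured. In edgeR 15.7% of all genes were higher and 13% lower with the degrader. With A485 13 fell and 0 rose in either tool (33.2% and 29.4% of all genes in limma, 30.5% and 30.6% in edgeR). With both agents 9 were higher and 0 lower than with A485 in limma (4.56% and 2.34% of all genes). In edgeR 6 were higher and 0 lower (2.65% and 1.75% of all genes). At an unadjusted p under 0.05 the counts of 0 were also 0 in limma. With LBH589 11 fell and 1 rose (34.6% and 32.4% of all genes). With libraries scaled to the same total, 1 of the 14 was higher with A485. Gypc, a red cell membrane protein, averaged 8238 ± 359 normalised reads with the degrader and 2596 ± 113 in DMSO (log2 difference 1.67 ± 0.08, adjusted p = 4.52e-17). Hemgn, a nuclear protein of erythroid cells, had 1310 ± 117 and 433 ± 34.8 (1.59 ± 0.17, adjusted p = 8.83e-09), and Alas2, which starts heme synthesis in erythroid cells, 694 ± 53.7 and 288 ± 14.9 (1.27 ± 0.17, adjusted p = 4.54e-07). With A485 Alas2 had 11.3 ± 0.339 reads (-4.55 ± 0.17, adjusted p = 2.81e-22).

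Several microRNAs are known to target the Myb transcript, and 2 of 5 listed host genes were measured. Dleu2 and Smc4 carry the miR-15 and miR-16 genes on chromosomes 14 and 3 of GRCm38.p6, and the mature strands below, from RefSeq, are shown because both hosts yield the same seed, bases 2 to 8, in capitals.
mmu-miR-15a-5p, in Dleu2: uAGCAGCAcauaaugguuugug
mmu-miR-16-5p, in both hosts: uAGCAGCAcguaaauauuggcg
mmu-miR-15b-5p, in Smc4: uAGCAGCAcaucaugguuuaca
Neither host passed the threshold with 1 h of degrader or with A485 in limma or in edgeR, though with the degrader both were lower at an unadjusted p under 0.05, with log2 differences of -0.09 ± 0.04 for Dleu2 and -0.10 ± 0.04 for Smc4. Scaled to the same total, both passed as lower with the degrader, where 17.4% of all genes were lower. On that scaling both passed as higher with A485, where 51.1% of all genes were higher. Dleu2, a noncoding gene, averaged 8834 ± 307 normalised reads with A485 and 9234 ± 173 in DMSO (log2 difference -0.06 ± 0.04, adjusted p = 0.21). Smc4, a condensin subunit, had 5577 ± 130 and 5480 ± 92.0 (0.03 ± 0.04, adjusted p = 0.63), and it was lower with LBH589, by 0.09 ± 0.04 on the log2 scale (adjusted p = 0.0297; 0.03 higher when scaled to the same total), and with both agents than with A485, by 0.18 ± 0.04 (adjusted p = 0.00734). Nascent RNA of a host was measured here, not mature microRNA.

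The genes most like Myb were found by correlating group means of log2 reads over the 23 groups of the 4 experiments, after subtracting each table's mean, for the 12116 other genes measured at a mean of at least 10 in all tables. The highest correlations were those of Odc1 (r = 0.94), the first enzyme of polyamine synthesis, Arhgap23 (0.93), Prpf3 (0.93), a splicing factor, Bcl2l1 (0.93), which encodes the survival factor BCL-XL, Tsc1 (0.92), a brake on mTOR, and Adam10 (0.92), a membrane protease. The lowest were those of Tbk1 (-0.89), Cep120 (-0.88), Plpbp (-0.88), Rpa1 (-0.87), Ypel1 (-0.87) and Mmgt1 (-0.86). Over all genes the median r was 0.00 and 18 genes reached 0.9. Groups of a table share their libraries' normalisation, and the time course and the A485 series both hold degrader groups, so these values are a description over 23 groups.

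The genes alike in pattern had smaller log2 differences than Myb in these comparisons. Odc1 differed by 0.16 with 1 h of degrader, -1.26 with A485 and -0.50 with LBH589 on the log2 scale, where Myb differed by 1.20, -2.37 and -1.61. Adam10 differed by 0.36, -1.43 and -0.62, and Bcl2l1 by 0.37, -0.66 and -0.63. At 2 h of washout against 2 h of degrader, where Myb differed by -0.78, the 6 genes lay between -0.20 and 0.01. Among genes named above, Cbfa2t3 had r = 0.84 with Myb and ranked 94th of the 12116, Gfi1b 0.83 (136th), Myc 0.79, Bcl2 0.78, Gata1 0.76, Cdk6 0.72, Hbs1l 0.60, Ahi1 0.26, Mybl2 -0.22 and Mybl1 -0.65.

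**Figure D4:**
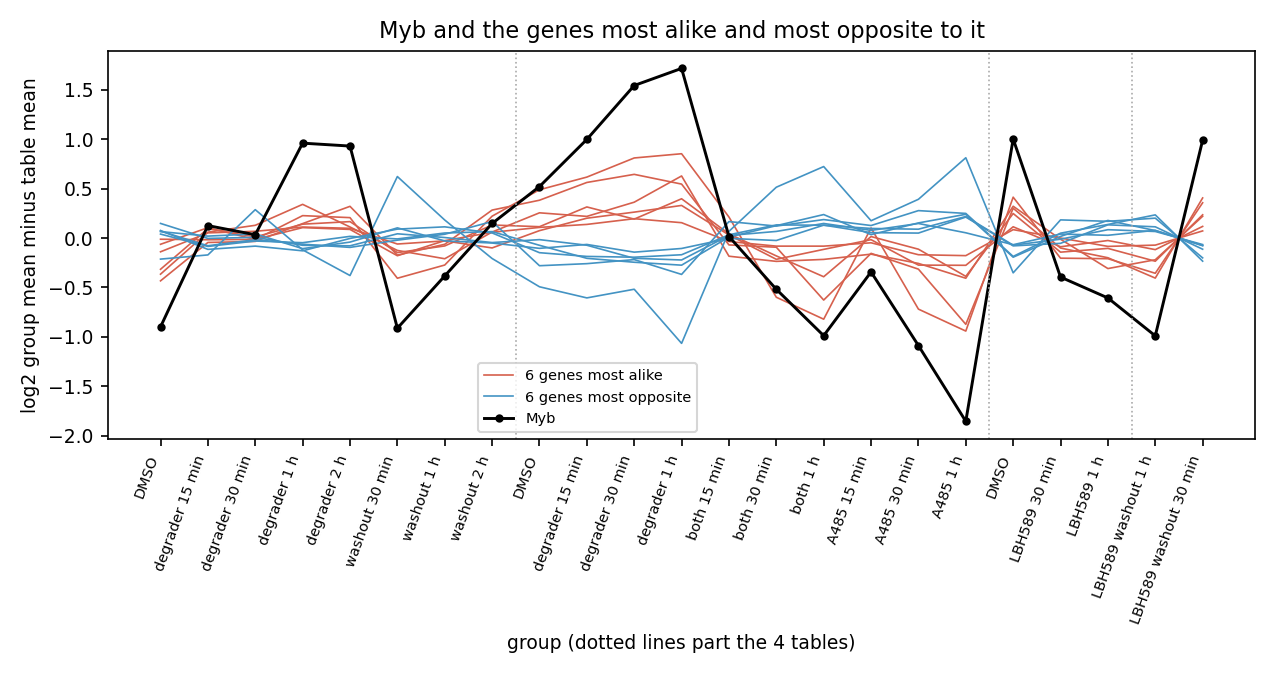
Group means of log2 reads minus the table's mean over groups (vertical axis) across the 23 groups of the 4 tables, for Myb (black), the 6 genes most alike (red) and the 6 most opposite (blue). Myb runs from -1.85 in A485 1 h to 1.72 in degrader 1 h of the A485 series, beyond every other line.

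The second deposited table of each experiment holds reads at dREG sites, short stretches of paired nascent transcription that mark active promoters and enhancers, with coordinates on mm39 per the submitters' notes. No mm39 gene positions were used here, so no site is assigned to Myb. The position of Myb given above is on GRCm38.p6, another build, and cannot be compared with the site coordinates. Whether any site lies within Myb or at its promoter was therefore not determined. Instead, all 1012 sites of chromosome 10 with a mean of at least 10 in the A485 series were ranked by their correlation with Myb over its 28 libraries, a choice made after their values were seen. The most alike site was chr10:21029671-21030280 (r = 0.96), and 5 of the 23 sites with r of 0.9 or more lay in the stretch from there to 21119420; the median over the chromosome was 0.02. Within 100 kb of that site there were 11 sites. The 7 from it towards higher coordinates had r of 0.83 to 0.96, and the 4 towards lower coordinates 0.08 to 0.74.

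The most alike site had 323, 247 and 251 normalised reads after 1 h of degrader and 146, 176 and 205 in DMSO in the A485 series, and 27.4, 42.2 and 50.2 after 1 h of A485. These groups did not overlap. The other experiments did not enter the ranking, but the A485 series that did holds degrader groups too. Myb itself was picked for its changes in these tables, so the other experiments are no independent check. With LBH589 for 1 h the site had 80.5, 84.6 and 101, against 217, 224 and 204 in DMSO. After 2 h of degrader it had 731 and 768, against 329, 199 and 282 in the DMSO of the time course. The site at 21118161 to 21119420 had 175 and 244 after 2 h of degrader, against 43.0, 22.8 and 61.1 in DMSO, and 85.6, 75.5 and 129 with LBH589, against 373, 326 and 358 in DMSO.

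Taking the 7 sites together, the groups did not overlap for all 7 with LBH589 (lower, log2 differences -1.89 to -0.30), where 23.7% of 22740 sites were lower, and for all 7 with 2 h of degrader in the time course (higher, 1.10 to 2.37), where 22% of 23307 sites were higher. In the A485 series, which chose the stretch, all 7 were lower with A485 (24.8% of 21312 sites), 5 were higher with 1 h of degrader (24.8% of sites) and 5 higher with both agents than with A485 (9.2% of sites). Of the 4 sites on the other side, all 4 were higher with 2 h of degrader and 1 was lower with LBH589. In the A485 series all 4 were higher with 1 h of degrader, 1 was lower with A485 and 2 were higher with both agents than with A485. The stretch of 7 was chosen for its likeness to Myb, so these counts are a description.

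During washout the sites differed among themselves. At the most alike site the washout libraries had 211, 161 and 664 normalised reads at 30 min, 303 and 370 at 1 h, and 563, 483 and 499 at 2 h, against 731 and 768 at 2 h of degrader. Its levels stood in the order 30 min, 1 h and 2 h of washout and 2 h of degrader, apart from the library labelled washout 30 min replicate 3. At 30 min of degrader the site had 578, 623 and 115 reads, the last in the library labelled replicate 3, which stood apart in the gene table too. In the site table each of these 2 libraries correlated with the other's group: the one labelled degrader 30 min replicate 3 had a mean correlation of -0.25 to its own group and of 0.72 to the other 30 min washout libraries, and the one labelled washout 30 min replicate 3 had -0.23 to its own group and 0.52 to the other 30 min degrader libraries. The labels were kept, and whether these libraries were exchanged was not tested. At the site at 21118161 to 21119420 the 2 h washout libraries had 835, 904 and 1277 reads, all above the 175 and 244 of 2 h of degrader, and at 21096341 to 21099260 they had 780, 829 and 1029, above 329 and 300. Of the 7 sites 5 were higher and 1 lower at 2 h of washout than at 2 h of degrader, where 26.4% of all sites were higher and 26.3% lower, while Myb was lower.

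In the LBH589 washout experiment, 6 of the 7 sites had a mean of at least 10. At 1 h 3 of them were higher than at 30 min without overlap, where 16.6% of 17435 sites were, and none lower without overlap; the log2 differences ran from 0.18 to 0.70, while that of Myb was -1.98. The most alike site had 33.3, 37.8 and 48.7 normalised reads at 1 h and 24.4, 19.0 and 29.2 at 30 min. Site libraries there held about 1490000 to 3510000 reads, and levels of this size rest on few reads.

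**Figure D5:**
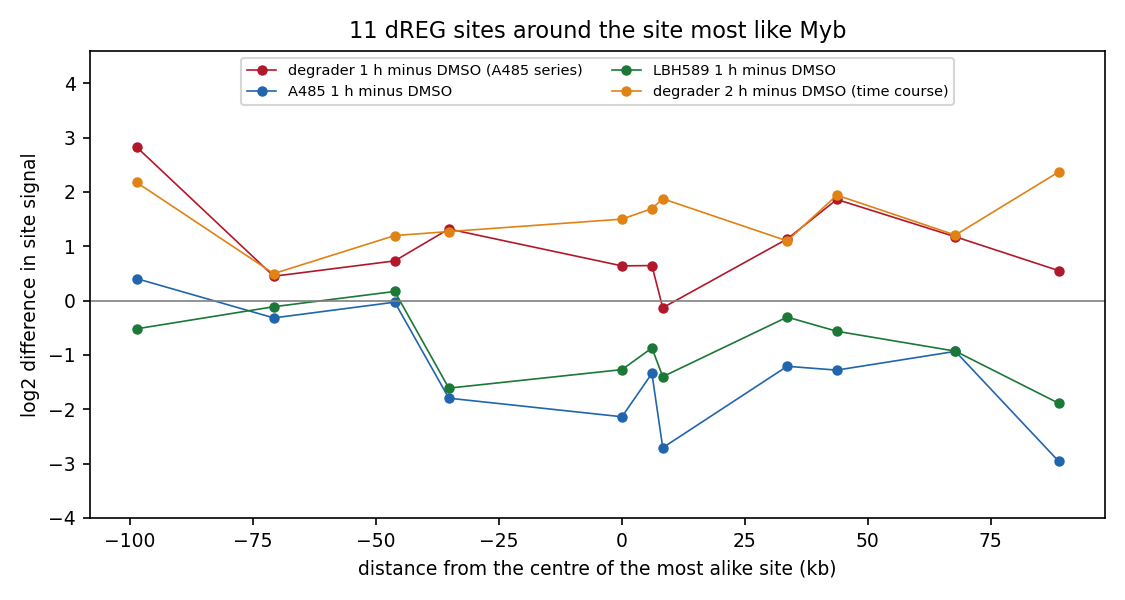
Log2 differences in mean log2 reads at 11 dREG sites (vertical axis) by distance in kb from the centre of the site most like Myb (horizontal axis), for 1 h of degrader (red) and of A485 (blue) in the A485 series, 1 h of LBH589 (green) and 2 h of degrader in the time course (orange), each against DMSO. At the 7 sites from 0 kb up, A485 and LBH589 lie below 0 and 2 h of degrader above it.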

How the data were processed

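PRO-seq libraries of MEL Mtg16-FKBP-2XHA cells were measured in 4 gene tables and 4 dREG tables. The signal values were made by the authors, per the labels, by normalising read counts with DESeq2, and the deposited signal is comparable within a table only. Per the submitters' processing notes, the tools were DESeq2 1.46.0, featureCounts 2.0.1, Bowtie2 2.2.2, HOMER, SAMtools 1.16.1 and bedtools, on dm3 and mm39. Whether counting used strand is not given in the sources used here. The values are whole reads divided by a factor per library; the reads were recovered, 100% of values within 0.1 of a whole number. The most abundant transcript stood for a gene. Genes whose mean reached 10 entered limma 3.58.1 in R 4.3.3 as log2(value + 1), one fit per table, and p-values were adjusted over all genes by Benjamini-Hochberg with a threshold of 0.05; folds of low genes are understated on that scale. edgeR 4.0.16 on the recovered reads, other pseudocounts, filters and scalings, the replicate block and fits without single libraries were alternatives. Both tools were tested on simulated data.

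Myb, the gene lists and the tests were chosen with earlier results of these data known. Named in the text are Myb, the MYB family, the genes beside Myb, up to 6 members of each other list with the largest change past the threshold in a comparison, and Kit, Myc, Bcl2, Cdk6, Mybl2, Crebbp, Ep300, Gata1, Gata2 and Cbfa2t3; Gm33619 was added as the measured neighbour. 1 column of the time-course gene table, which holds no values, was not used. Same-numbered libraries did not deviate together: of 24 pairs of groups with 3 shared numbers, 1 had every correlation over 0.1, so no block was used.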

Additional observations from a re-analysis of the deposited data

Results flagged for a closer look

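A column of the time-course gene table named for washout 1 h replicate 2 could not be tied to a library and entered no comparison; Myb had 17382 normalised reads in it, above the 8180 to 9674 of the DMSO libraries. It lay close to the 17590 and 18485 of the 2 h washout. The other unsettled column, named for washout 30 min replicate 3, had 9182 normalised reads, within the range of the DMSO libraries. If the header is moved by 1 place, the column with 9182 belongs to the 1 h washout and that with 17382 to the 2 h washout. Under that reading the 1 h washout overlaps DMSO. Over 930 gene and site pairs, the column with 9182 correlated at -0.023 with the site library of its name and at 0.17 with the next. Its best match, also at 0.17, was the site library washout 30 min replicate 1. The site library of its name itself went against its label. From the named to the next library, the column with 12482 went from 0.15 to 0.13. That with 17382 went from 0.067 to 0.094, and the 2 h columns from 0.1 to 0.12 and from 0.095 to 0.11. Which reading holds was not settled.

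The change with the degrader at 1 h differed with and without A485 for some genes of the lists on MYB cofactors, MYB targets, factors at the locus, neighbours and red cell maturation, by the interaction term of the limma fit. Given as the log2 change with A485 minus that without, it was positive for Gfi1b (1.03, adjusted p = 2.34e-07), Hspa8 (0.69, 0.0155), Cbfa2t3 (0.63, 0.00572), Zfpm1 (0.51, 3.6e-05), Mcl1 (0.37, 0.000239), Gypc (0.35, 0.0476), Mat2a (0.30, 0.0113), Ccnb1 (0.29, 0.0135), Cbfb (0.29, 0.00331), Hdac3 (0.29, 0.026) and Crebbp (0.18, 0.0204). It was negative for Sptb (-0.61, adjusted p = 1.4e-07), Car2 (-0.47, 0.000907), Tfrc (-0.43, 8.45e-06), Runx1 (-0.31, 2.38e-05), Ahi1 (-0.24, 0.0359), Ikzf1 (-0.20, 0.0115) and Fli1 (-0.15, 0.0106). Of all 12597 genes tested, 4.99% were positive and 6.54% negative. By list, 1 was positive and 0 negative of 12 cofactors, 4 and 1 of 22 targets, and 5 and 2 of 23 factors at the locus. For the 9 neighbours the counts were 0 and 1, and for the 14 red cell maturation genes 1 and 3. Gfi1b rose with the degrader by 2.21 in the presence of A485 and by 1.19 in its absence, and Runx1 differed by 0.19 and 0.49. Hspa8, Mcl1 and Mat2a differed by 0.06, -0.04 and -0.24 with A485 and by -0.63, -0.41 and -0.54 without it. Sptb, Car2 and Tfrc differed by 0.22, 0.55 and 0.22 with A485 and by 0.83, 1.02 and 0.65 without it.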

How the results depend on the processing

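The log2 differences of Myb in the 7 comparisons kept their sign under every setting run, and all but 3 values moved by less than 1 SD. Scaled to the same total, A485 1 h against DMSO gave -2.16 and LBH589 1 h against DMSO -1.49. With the replicate block, degrader 2 h against DMSO in the time course gave 1.62, and degrader 1 h 1.20, both agents against A485 0.87 and the LBH589 washout -1.98; no other pairing was possible, because the groups share fewer than 2 numbers or their columns carry none. Leaving out 1 library gave 1.14 to 1.24 for degrader 1 h, -2.41 to -2.33 for A485, 0.83 to 0.89 for both agents against A485, -1.63 to -1.57 for LBH589, 1.78 to 1.90 for degrader 2 h, -0.82 to -0.75 for 2 h washout, and -2.22 to -1.80 for the LBH589 washout. Over all genes, 2 h washout against 2 h degrader called 1142 higher and 1056 lower, but 3304 and 2981 with only the groups compared, and 2825 and 2647 without the libraries that stood apart. edgeR on recovered reads called 3876 higher and 3858 lower with A485, where limma called 3703 and 4186. For both agents against A485, limma called 574 and 295, edgeR 336 and 221, and limma with the replicate block 274 and 118. Counts of listed MYB targets past the threshold depended more on the setting. For both agents against A485, 5 became 2 with edgeR, 1 with only the groups compared, 2 with the replicate block, and 2 to 4 without 1 library. For 2 h washout, 8 became 16 with only the groups compared, 14 without the libraries that stood apart (a setting chosen after seeing the data), and 4 to 5 without 1 library. For degrader 1 h, A485 and LBH589 leaving out 1 library gave 5 to 6, 15 to 20 and 14 to 17. Scaled to the same total, the sign turned for Bclaf1 (0.16), Ep300 (0.13), Hbs1l (0.03) and Map7 (0.04) with A485, and for Hbs1l (0.00) and Smc4 (0.03) with LBH589; of 2578 values of named genes under other settings, 6 changed sign, 144 lost a call, 22 gained one and 2406 did neither. Dropping the 5 libraries with conflicting labels was not run for Myb, since the comparisons use them. The cause of these changes was not tested.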
